A study of Mus musculus with 16 samples.

Results

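The genes described here are 6 matrix metalloproteinases (Mmp2, Mmp3, Mmp9, Mmp12, Mmp13 and Mmp14) and 3 of their tissue inhibitors (Timp1, Timp2 and Timp3), measured in whole-tissue RNA of 16 mouse melanoma biopsies. They were taken by name from the array design, where 11 probes carry these 9 symbols, and all 9 were among the 21985 genes tested. Each array set the RNA of 1 tumour, in the dye Cy5, against a commercial mouse reference RNA, in Cy3, and a level below is the log2 ratio of Cy5 over Cy3. There were 4 tumours per group by the labels: an untreated control group, tumours treated for 4 days, tumours treated for 60 days, and tumours titled resistant with 120 days of treatment. The title of the series names BRAF inhibitors, which block the mutated kinase that drives many melanomas. The drug and its dose, the tumour model, and the strain and age of the mice are not given in the sources used here.

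Matrix metalloproteinases are zinc enzymes that cut proteins of the extracellular matrix and of the cell surface. Most are secreted as inactive proenzymes, and in tumours much of the supply comes from fibroblasts, macrophages and neutrophils as well as from the tumour cells. Mmp2 and Mmp9 are the gelatinases, Mmp13 is the main collagenase of rodents, Mmp3 is a stromelysin, Mmp12 is the elastase of macrophages, and Mmp14 is anchored in the cell membrane. The Timp proteins bind the active site of the enzymes and block it. Timp2 also forms a bridge between Mmp14 and the proenzyme of Mmp2, through which Mmp14 activates Mmp2. The promoters of many of these genes, Mmp3 and Mmp13 among them, carry sites for AP-1 and ETS transcription factors, families that respond to signalling through the MAPK pathway downstream of BRAF.

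The promoters of Mmp13, Timp1 and Mmp3 are shown because 4-day or 60-day levels of these genes did not overlap the untreated levels. Each is the RefSeq window of 250 bases before to 50 bases after the start of the gene, on build GRCm38.p6, printed in the direction of the gene. Capitals mark exact matches, on either strand, to TGANTCA (the AP-1 motif), AGGAAG (an ETS motif) and TATAAA (the TATA box). None of these matches overlap one another.
Mmp13, chr9:7272264-7272563, plus strand: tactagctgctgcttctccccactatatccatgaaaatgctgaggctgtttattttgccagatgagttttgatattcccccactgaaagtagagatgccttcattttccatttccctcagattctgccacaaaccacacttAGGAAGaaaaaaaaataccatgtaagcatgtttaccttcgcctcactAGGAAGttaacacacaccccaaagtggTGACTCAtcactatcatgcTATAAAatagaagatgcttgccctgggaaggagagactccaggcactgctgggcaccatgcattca
Mmp3, chr9:7445572-7445871, plus strand: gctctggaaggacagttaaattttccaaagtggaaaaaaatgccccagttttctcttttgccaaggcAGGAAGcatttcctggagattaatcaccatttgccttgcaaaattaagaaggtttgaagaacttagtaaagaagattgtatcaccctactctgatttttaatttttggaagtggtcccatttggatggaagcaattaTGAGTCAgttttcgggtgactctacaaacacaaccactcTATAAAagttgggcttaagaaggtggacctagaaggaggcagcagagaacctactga
Timp1, chrX:20869916-20870215, plus strand: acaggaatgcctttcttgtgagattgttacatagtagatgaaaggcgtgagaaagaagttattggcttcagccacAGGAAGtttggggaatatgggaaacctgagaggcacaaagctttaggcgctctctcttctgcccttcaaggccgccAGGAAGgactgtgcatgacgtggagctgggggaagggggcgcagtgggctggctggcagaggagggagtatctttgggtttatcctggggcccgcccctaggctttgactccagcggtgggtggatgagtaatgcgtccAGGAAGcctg
In Mmp13 the AP-1 match starts 35 bases before the listed start of the gene, with a TATA match at 16 bases and ETS matches at 62 and 109 bases before it. In Mmp3 the AP-1 match starts at 46 bases, the TATA match at 7 bases and the ETS match at 183 bases before the start. Timp1 has 3 ETS matches, at 175 and 99 bases before and 40 bases after the start, and no exact match to the other motifs in this window. Near matches were not searched for. Windows were held for 7 of the 9 genes, with 2 windows for Mmp12. The AP-1 motif was present in 3 of these 7 genes (Mmp3, Mmp12 and Mmp13). By window it was in 3 of their 8, against 7.81% of all 32851 windows of the table. The ETS motif was present in 6 of the 7 genes, in all but Timp2. By window it was in 6 of 8, against 35.4% of all windows. The TATA motif was present in the same 3 genes as AP-1, in 3 of 8 windows, against 13.6% of all windows. A match is a description of these letters and does not show that a factor binds there.

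Every group was spread evenly over 2 slides, its replicates 3 and 4 hybridised on slide 1 and its replicates 1 and 2 on slide 2. In the 60-day and resistant groups the codes in the sample titles split the tumours in the same way, and the 4-day tumours have codes of another series than the rest. No code is shared between groups. If the codes mark the origin of the tumours, origin and treatment cannot be told apart in any comparison. Resistant replicate 1 stood apart in its makeup, with a mean level of 7 keratinocyte genes of 1.39, against 3.39 to 4.59 in the other 15 tumours. Markers of melanocytes were measured in all tumours, and their mean level (7 genes) ran from 1.73 to 3.95. In whole tissue, fewer cells of a type and less RNA per cell cannot be told apart.

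**Figure D1:**
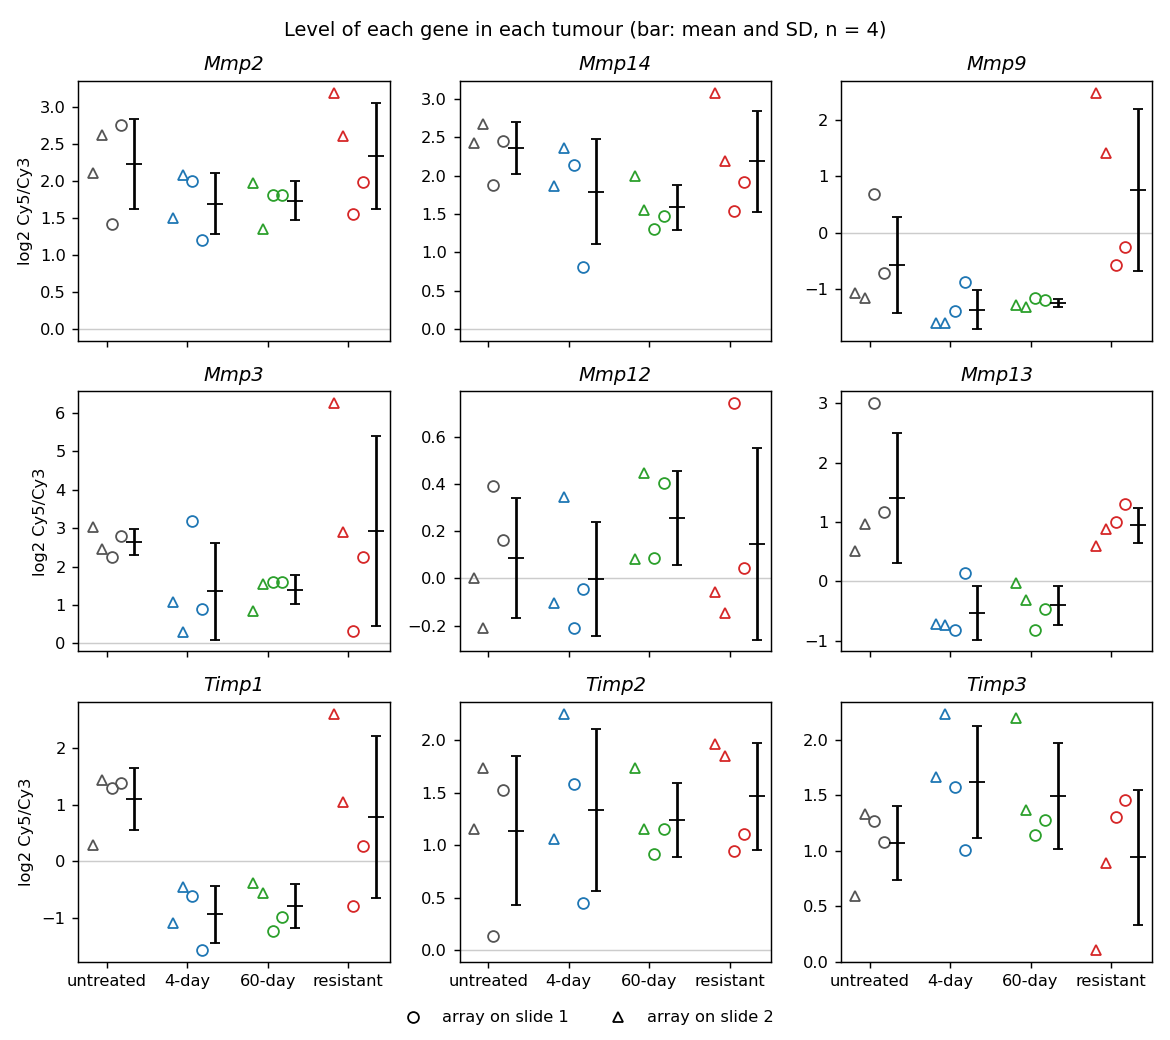
Level of each of the 9 genes (log2 Cy5 over Cy3, vertical axes on scales of their own) in each of 16 tumours, by group, with circles for slide 1, triangles for slide 2 and a bar for the mean and SD of 4 tumours. The 4-day and 60-day levels of Timp1 lie below all untreated levels, and the resistant levels of Mmp9 and Timp1 are higher on slide 2 than on slide 1.

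Mmp13 is the collagenase that cleaves the fibrillar collagens of the dermis. It was the 1 gene of the 9 with a limma adjusted p under 0.05 in a comparison with untreated tumours. Its level in the untreated tumours was 0.51, 0.96, 3.00 and 1.17 in replicates 1 to 4. After 4 days it was -0.71, -0.73, -0.81 and 0.14. After 60 days it was -0.02, -0.32, -0.82 and -0.46. In the resistant tumours it was 0.60, 0.88, 1.00 and 1.30. Every tumour treated for 4 or 60 days lay below every untreated and every resistant tumour, while untreated and resistant tumours overlapped. Untreated replicate 3 was the highest of all, and 4-day replicate 4 was the highest of its group. The mean was 1.41 ± 1.09 (SD, n = 4) in untreated, -0.53 ± 0.45 in 4-day, -0.40 ± 0.33 in 60-day and 0.94 ± 0.29 in resistant tumours.

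Between 4-day and untreated tumours Mmp13 fell 3.83-fold (log2 difference -1.94 ± 0.41 SE, limma adjusted p = 0.0409). In this comparison 295 of 21985 genes passed, 1.34% of those tested, and 1 of the 9 genes described here passed. At an unadjusted p under 0.05 there were 2 of the 9 (Mmp13 and Timp1) and 16.7% of all genes. The difference was -2.42 on slide 1 and -1.45 on slide 2. With the slide as a block limma gave an adjusted p of 0.0248, with 633 of all genes passing. An exact two-sided permutation test of the 4 values against 4 gave 0.0286, which is the smallest p that this design allows. Without untreated replicate 3 the difference was -1.41 (limma adjusted p = 0.0147), with 679 of all genes passing. The call ended with median centring of the arrays (adjusted p = 0.460), in a model of these groups alone (0.156), without a filter on dim probes (0.0525), and without any 1 of 12 of the 16 arrays. With median centring 12 of all genes passed and in the model of these groups alone 29, and over all 13 alternatives that kept every array or 1 slide the difference of Mmp13 ran from -2.71 to -1.45.

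The 60-day difference of Mmp13 was -1.81 ± 0.41 (3.51-fold lower, limma adjusted p = 0.0550), and it did not pass. The 60-day and 4-day comparisons share their untreated tumours. Of all genes 180 passed at 60 days, 0.819% of those tested. Of the 9 genes 0 passed in limma and 3 (Mmp13, Timp1 and Mmp14) had an unadjusted p under 0.05, as did 18.7% of all genes. With the slide as a block Mmp13 passed at 60 days (limma adjusted p = 0.0322), with 626 of all genes passing. The within-slide differences were -2.72 on slide 1 and -0.90 on slide 2. Mmp13 also passed without untreated replicate 3 (-1.28, limma adjusted p = 0.0207) and without resistant replicate 1 (-1.81, adjusted p = 0.0280). In these 2 fits 1099 and 1138 of all genes passed, against 180 with every array. Resistant tumours had more Mmp13 than 4-day tumours by 1.47 ± 0.41 (2.78-fold) and than 60-day tumours by 1.35 ± 0.41 (2.55-fold), with limma adjusted p of 0.511 and 0.867. In these 2 comparisons 1 gene (0.00455%) and 0 genes (0%) of the 21985 passed, and 1801 (8.19%) and 1247 (5.67%) had an unadjusted p under 0.05. Of the 9 genes 0 passed in either, and Mmp9, Mmp13 and Timp1 had an unadjusted p under 0.05 in both. The array carries 1 probe for Mmp13, on chromosome 9 at 7282762 to 7282821 of build mm9, and it was above background on all 16 arrays.

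Timp1, a secreted inhibitor that binds most of these enzymes and is induced in wounds and inflammation, had the largest treated differences of the 9 genes but did not pass. Its level in the untreated tumours was 0.29, 1.44, 1.29 and 1.39. After 4 days it was -1.10, -0.46, -0.62 and -1.57. After 60 days it was -0.38, -0.57, -1.23 and -0.99. In the resistant tumours it was 2.62, 1.05, -0.80 and 0.26. All 8 tumours treated for 4 or 60 days lay below all 4 untreated tumours, while the resistant tumours ran from the treated range to above the untreated range. Untreated replicate 1 was the lowest of its group.

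The 4-day difference of Timp1 was -2.04 ± 0.54 (4.11-fold lower, limma adjusted p = 0.0799), with -2.43 on slide 1 and -1.64 on slide 2. The 60-day difference was -1.89 ± 0.54 (3.71-fold lower, adjusted p = 0.0973), with -2.45 and -1.34. With the slide as a block the 4-day difference passed (limma adjusted p = 0.0480) and the 60-day difference did not (0.0599), with 633 and 626 of all genes passing. Without resistant replicate 1, which enters the estimate of the spread only, both passed (limma adjusted p = 0.0191 and 0.0167), with 702 and 1138 of all genes. Without resistant replicate 3 the 4-day difference passed (limma adjusted p = 0.0410), with 286 of all genes. Resistant tumours differed from untreated ones by -0.32 ± 0.54 (adjusted p = 0.910), with values of opposite sign on the slides, -1.61 on slide 1 and 0.97 on slide 2. The probe of Timp1 lies on chromosome X at 20451802 to 20451861 (mm9).

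**Figure D2:**
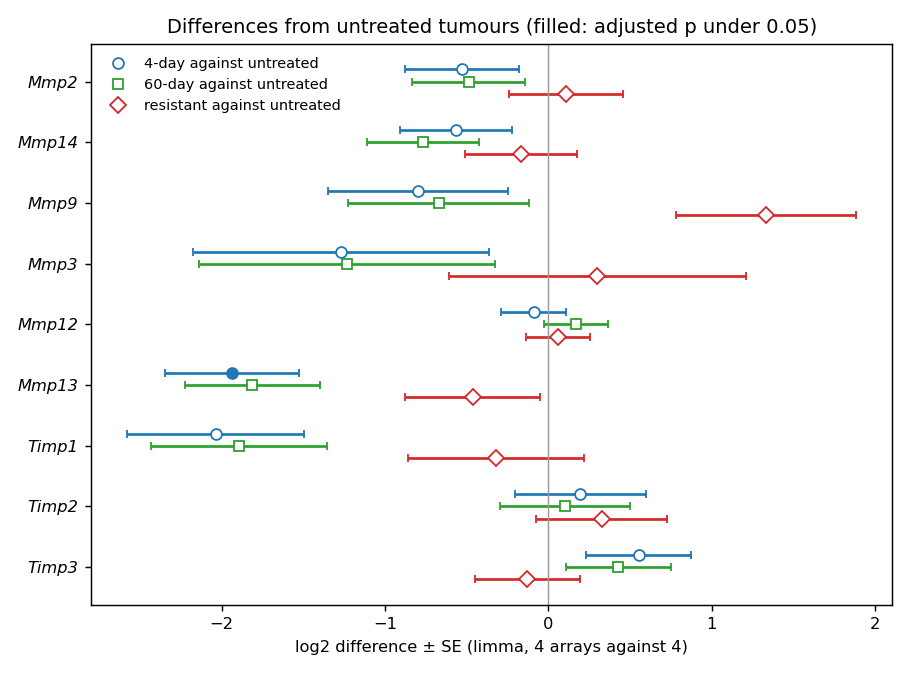
Log2 difference from untreated tumours with its standard error (horizontal axis) for each gene at 4 days, at 60 days and in resistant tumours, from limma with 4 arrays against 4. The filled point is the 4-day difference of Mmp13 (-1.94), the 1 value past an adjusted p of 0.05, and the 4-day and 60-day values of Timp1 and Mmp13 all lie below -1.8.

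Mmp9, the gelatinase that neutrophils store in granules and macrophages secrete, was most abundant in 2 of the 4 resistant tumours. Its level there was 2.47, 1.40, -0.57 and -0.27. In the untreated tumours it was -1.08, -1.17, 0.67 and -0.71. After 4 days it was -1.60, -1.61, -1.39 and -0.88, and the probe was above background in 1 of these 4 tumours. After 60 days it was -1.29, -1.31, -1.17 and -1.20, with 3 of 4 above background. All resistant levels were above all 4-day and all 60-day levels, and resistant and untreated levels overlapped. The spread of the 60-day tumours (SD 0.0699) was the smallest of the 4 groups, and that of the resistant tumours (SD 1.43) the largest.

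The Mmp9 probe is printed 10 times on each array. The SD between the 10 spots of an array had a median of 0.106 and ran from 0.0550 to 0.221, a spread that holds no error of labelling or hybridisation. Resistant tumours had more Mmp9 than 4-day tumours by 2.13 ± 0.55 (4.37-fold, limma adjusted p = 0.438), than 60-day tumours by 2.00 ± 0.55 (4.01-fold, adjusted p = 0.867) and than untreated tumours by 1.33 ± 0.55 (2.51-fold, adjusted p = 0.454). None of the 3 passed, and the fold against 4-day tumours rests on a group in which 1 of 4 arrays measured the probe above background. In the comparison with untreated tumours 4 of the 21985 genes passed, 0.0182% of those tested. Of the 9 genes 0 passed in limma, and 1 (Mmp9) had an unadjusted p under 0.05, as did 9.52% of all genes.

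The Mmp9 differences were of different size on the 2 slides. In the resistant and 60-day groups the title codes split the tumours as the slides do, so slide and code cannot be told apart there. Against untreated tumours the value was -0.40 on slide 1 and 3.06 on slide 2. Against 4-day tumours it was 0.72 and 3.54, and against 60-day tumours 0.77 and 3.24. Without resistant replicate 1 the 3 differences were 0.76, 1.56 and 1.43 (against untreated, 4-day and 60-day tumours). The probe lies on chromosome 2 at 164780620 to 164780679 (mm9).

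Neutrophil markers were high in the same resistant tumours. The mean level of the 8 measured marker genes (S100a8, S100a9, Csf3r, Cxcr2, Ly6g, Retnlg, Camp and Elane) was 3.93 and 2.99 in resistant replicates 1 and 2, and 1.76 and 2.02 in replicates 3 and 4. It ran from 1.96 to 2.28 in untreated, 1.41 to 1.98 in 4-day and 0.87 to 1.96 in 60-day tumours. It was 2.28 in each of untreated replicates 1, 2 and 3, where Mmp9 was -1.08, -1.17 and 0.67. Of these 8 genes 7 were higher in resistant than in 4-day tumours and 0 passed in limma (2 at an unadjusted p under 0.05, against 8.19% of all genes), while the granule genes Ngp and Mpo were below the filter on dim probes. Monocyte and macrophage markers (6 genes) had a mean level of 2.01 in resistant replicate 1 and of 0.55 to 1.05 in the other resistant tumours. The part of these cells in the levels of Mmp9 and Timp1 was not tested.

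**Figure D3:**
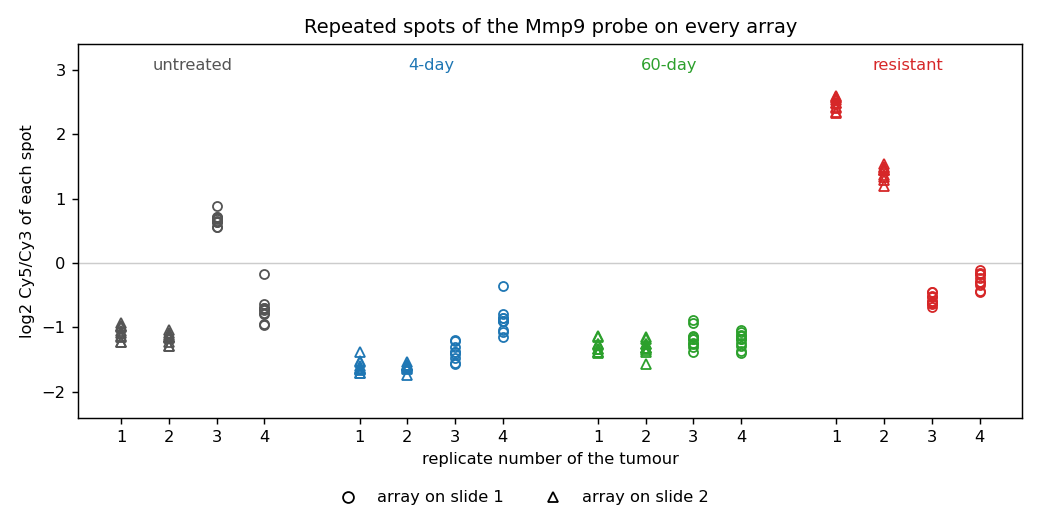
Log2 Cy5 over Cy3 of the repeated Mmp9 spots (vertical axis) on each of 16 arrays, ordered by group and replicate, with circles for slide 1 and triangles for slide 2. Resistant replicates 1 and 2 (means 2.47 and 1.40) and untreated replicate 3 (0.67) lie above 0, and the other 13 tumours lie below 0.

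Mmp3, a stromelysin that cleaves proteoglycans and laminin and activates other proenzymes, had the widest range of the 9 genes. Its level in the untreated tumours was 3.02, 2.45, 2.25 and 2.80. After 4 days it was 1.07, 0.30, 3.18 and 0.89, so that replicate 3 lay above all untreated tumours and the other tumours below them. After 60 days it was 0.84, 1.55, 1.61 and 1.59, all below the untreated range. In the resistant tumours it was 6.25, 2.88, 0.33 and 2.26, which holds both the highest and nearly the lowest level of the 16. The 4-day difference was -1.27 ± 0.91 and the 60-day difference -1.23 ± 0.91 (limma adjusted p = 0.542 and 0.506). In a model of untreated and 60-day tumours alone, where the resistant spread does not enter, the 60-day difference passed (limma adjusted p = 0.0256). In that model 1258 of all genes passed, against 180 in the model of all groups. The resistant tumours differed from 4-day tumours by 1.57 ± 0.91 and from 60-day tumours by 1.53 ± 0.91, with adjusted p of 0.707 and 0.895. Without resistant replicate 1 these values were 0.46 and 0.43, and on slide 1 alone they were -0.74 and -0.30. The probe lies on chromosome 9 at 7455751 to 7455810 (mm9).

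Mmp14, the membrane-anchored enzyme that activates proMmp2 and cleaves collagen at the cell front, was above background in all tumours. Its level in the untreated tumours was 2.42, 2.67, 1.88 and 2.46. After 4 days it was 1.86, 2.36, 2.14 and 0.81, and after 60 days 2.00, 1.56, 1.31 and 1.48. In the resistant tumours it was 3.08, 2.20, 1.54 and 1.92. The 60-day levels were lower than the untreated levels except that 60-day replicate 1 lay above untreated replicate 3, and the other groups overlapped widely. The 60-day difference was -0.77 ± 0.34 (1.70-fold lower, limma adjusted p = 0.245), with -0.77 on slide 1 and -0.76 on slide 2. The 4-day difference was -0.56 ± 0.34 (adjusted p = 0.449), and it was -0.24 without 4-day replicate 4.

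Mmp2, the gelatinase made chiefly by fibroblasts, had levels of 2.11, 2.62, 1.42 and 2.75 in the untreated tumours. After 4 days it was 1.50, 2.08, 2.00 and 1.20, and after 60 days 1.97, 1.35, 1.81 and 1.82. In the resistant tumours it was 3.19, 2.60, 1.56 and 1.98. All pairs of groups overlapped. The 4-day difference was -0.53 ± 0.35 and the 60-day difference -0.49 ± 0.35 (limma adjusted p = 0.494 and 0.488). With array weights, which give arrays that fit the model poorly less influence, the 4-day difference of Mmp2 (-0.87, limma adjusted p = 0.0360) and the 60-day difference of Mmp14 (-0.92, adjusted p = 0.0154) passed, as did 4039 and 4887 of the 21985 genes.

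Timp2, the inhibitor that links Mmp14 to proMmp2, had levels of 1.16, 1.74, 0.13 and 1.53 in untreated, 1.06, 2.26, 1.58 and 0.44 in 4-day, 1.74, 1.16, 0.91 and 1.16 in 60-day, and 1.96, 1.85, 0.94 and 1.11 in resistant tumours. The groups overlapped, and the differences from untreated tumours were 0.20 ± 0.40 at 4 days and 0.10 ± 0.40 at 60 days (limma adjusted p = 0.893 and 0.936), of a sign that changed with single arrays. A dimmer Timp2 probe, whose 60 bases are spread over 6778 bases of chromosome 11 (118171964 to 118178741, mm9), had levels of -0.53 to 0.28 and differences of 0.12 and 0.03. Timp3, an inhibitor that stays bound to the matrix, had differences of the other sign than most of the genes, and none passed. Its level was 0.59, 1.33, 1.27 and 1.08 in untreated, 1.67, 2.23, 1.57 and 1.00 in 4-day, 2.20, 1.36, 1.14 and 1.27 in 60-day, and 0.11, 0.89, 1.31 and 1.45 in resistant tumours. The 4-day difference of Timp3 was 0.55 ± 0.32 and the 60-day difference 0.43 ± 0.32 (adjusted p = 0.423 and 0.519), with 0.11 and 0.04 on slide 1, and 0.99 and 0.82 on slide 2. The lowest Timp3 level was that of resistant replicate 1, where Mmp3, Mmp9 and Timp1 were highest.

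Mmp12, the macrophage elastase, was close to the limit of the arrays. Its brighter probe was above background on 4 of 16 arrays, with 1 untreated, 0 4-day, 2 60-day and 1 resistant tumour, and its other probe on 0 of 16. The level of the brighter probe ran from -0.21 to 0.75, with the highest value in resistant replicate 3, and no pair of groups separated. No fold is given for Mmp12, since a probe near background bounds a level rather than measuring it.

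Over the 9 genes, the median 4-day difference from untreated tumours was -0.56, against -0.01 over all 21985 genes, and the median 60-day difference was -0.67, against 0.00094. The 5 metalloproteinases other than Mmp12, which was near background and whose sign changed with the setting, were lower at both times under every setting run. Of the 3 inhibitors 1, Timp1, was lower at either time. Treated and untreated levels were fully separate for 2 genes at 4 days (Mmp13 and Timp1) and for 3 at 60 days (also Mmp3), against 6.85% and 13.7% of all genes. In resistant tumours the median difference from untreated was 0.06, which is the value of Mmp12, near background, against 0.01 over all genes. These groups were separate for 0 of the 9 genes and 4.26% of all genes. Against 4-day tumours the resistant median was 0.64 with 8 of 9 genes higher, and against 60-day tumours 0.60 with 7 of 9 higher. The resistant groups did not overlap the treated ones for Mmp9 and Mmp13, 2 of 9 genes in each comparison, against 2.67% and 3.6% of all genes. Between 60-day and 4-day tumours 0 of 21985 genes passed in limma (0%), with 412 at an unadjusted p under 0.05. The 9 genes differed by -0.21 to 0.26, the upper end being that of Mmp12, with 0 of 9 at that unadjusted p.

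The order of the group means differed between the genes. For Mmp13 and Timp1 it ran from untreated through resistant and 60-day to 4-day tumours. For Mmp2, Mmp3 and Mmp9 the resistant mean was the highest and the 4-day mean the lowest, and for Mmp14 the untreated mean was the highest and the 60-day mean the lowest. Neighbours in these orders overlapped, except resistant and 60-day tumours for Mmp13 and untreated and 60-day tumours for Mmp3. Timp3 had the highest mean after 4 days and the lowest in resistant tumours.

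Across the 16 tumours, Mmp2 and Mmp14 varied together, with Pearson's r of 0.854 (permutation p = 3e-05) and Spearman's rho of 0.894 (permutation p = 1e-05, the smallest that 100000 resamples can give). Of the 36 pairs among the 9 genes this had the highest r, with adjusted p of 0.0011 for r and 0.00036 for rho. The r was 0.777 without the 2 tumours farthest from the median of Mmp2, 0.791 on slide 1, 0.916 on slide 2 and 0.834 after the group means were removed. Mmp2 and Timp2 had r of 0.735 and rho of 0.765 (permutation p = 0.0012 and 9e-04, adjusted p = 0.0067 and 0.0093), and r was 0.744 without the 2 farthest tumours, 0.812 and 0.643 on slides 1 and 2, and 0.863 within groups. Mmp14 and Timp1 had r of 0.820 and rho of 0.865 (permutation p = 6e-05 and 4e-05, adjusted p = 0.0011 and 0.00072), with r of 0.696 without the 2 farthest tumours and 0.801 and 0.857 on the slides. Mmp3 and Timp3 ran in opposite directions (r of -0.743, rho of -0.559, permutation p = 0.0013 and 0.027, adjusted p = 0.0067 and 0.081), but r was -0.426 without the 2 farthest tumours, 0.418 on slide 1 and -0.930 on slide 2, so that this relation rests on the slide 2 tumours. The pairs described were picked from the 36, and Mmp2 with Timp1 (r of 0.785) and Mmp3 with Timp1 (0.770) ranked above Mmp2 with Timp2. Genes outside the 9 reached r of 0.942 with Mmp2 and 0.961 with Mmp14. The genes of each pair share a tumour, an array and a reference. The mean level of 8 fibroblast markers ran from 2.02 in 4-day replicate 4, where Mmp2 and Mmp14 were lowest, to 3.65 in resistant replicate 1, where they were highest. Over the 16 tumours this marker level had r of 0.815 with Mmp2, 0.851 with Mmp14 and 0.822 with Timp2. It had r of 0.525 with Timp1, 0.551 with Mmp3 and -0.164 with Timp3. Its part in these relations was not tested.

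**Figure D4:**
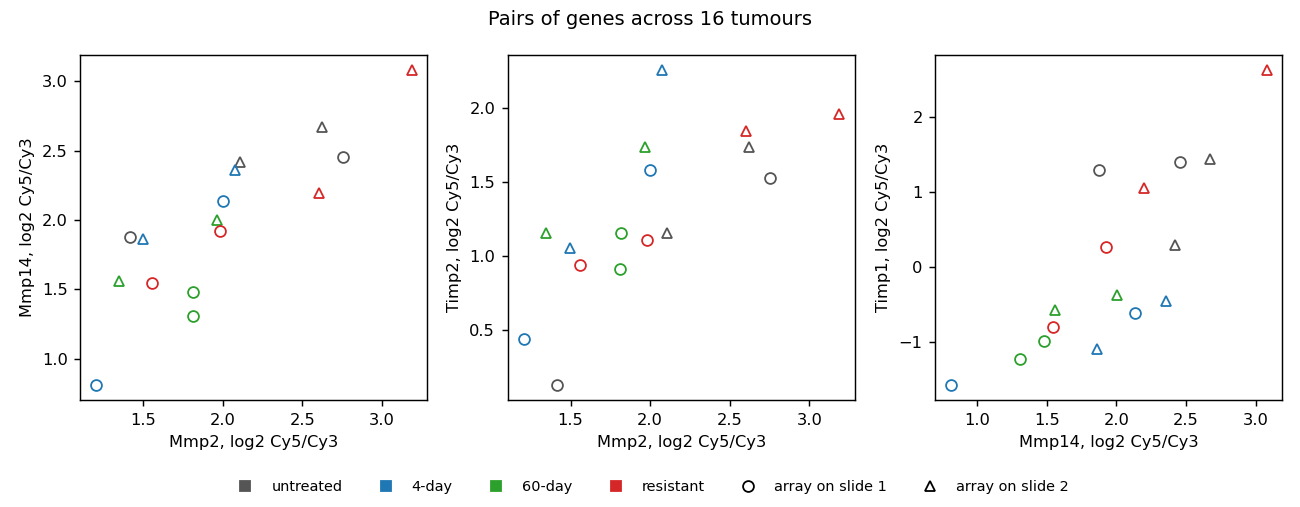
Levels (log2 Cy5 over Cy3) of Mmp2 against Mmp14, Mmp2 against Timp2 and Mmp14 against Timp1 in 16 tumours, coloured by group, with circles for slide 1 and triangles for slide 2. The points rise together in each panel (r of 0.854, 0.735 and 0.820), with resistant replicate 1 at the upper right and 4-day replicate 4 at the lower left of the first and last panels.

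Among 21495 genes with a value on all arrays, those most like each gene over the 16 tumours were named by Pearson's r, as a description. For Timp1 the most alike named genes were Plaur, the receptor of urokinase (r of 0.957), and Ecscr (0.954), and for Mmp14 they were Lamc1, a laminin chain (0.961), Arhgdia (0.960) and Tln1, a linker of integrins to the cytoskeleton (0.959). For Mmp9 they were Lcn2, a siderophore-binding protein (0.913), Ocstamp (0.913) and Cxcr2, the chemokine receptor of neutrophils (0.904). For Mmp3 they were Pf4, a platelet chemokine (0.935), Il1r1, the receptor of interleukin-1 (0.922), and Man2a1 (0.905). For Mmp2 they were Slc39a7, Itm2c and Map1a (0.936 to 0.942), for Timp2 Dag1 (0.934) and Zbtb14 (0.922), for Timp3 Ephx1 (0.916) and Tom1l2 (0.839), and for Mmp13 Slc20a1 (0.872). For Mmp12, near background, they were Gm8221, Grap2 and Flt3 (0.852 to 0.886).

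The other metalloproteinase genes on the array gave a similar count of directions and no call. Of 18 other Mmp and Timp genes 10 passed the filter on dim probes, and 7 of the 10 were lower at 4 days and 7 at 60 days, with medians of -0.36 and -0.34. In limma 0 of the 10 passed at either time, and 5 and 4 had an unadjusted p under 0.05 (16.7% and 18.7% of all genes). The 8 that did not pass the filter were Mmp1a, Mmp7, Mmp8, Mmp20, Mmp21, Mmp24, Mmp25 and Mmp28. Mmp3, Mmp12 and Mmp13 lie in a cluster on chromosome 9, where the array has probes for 10 metalloproteinase genes between 7282762 and 7697700 (mm9). Mmp10, another stromelysin of this cluster, had a mean level of 1.45 in untreated, 0.22 in 4-day, 0.04 in 60-day and 1.44 in resistant tumours (4-day difference -1.22 ± 0.57, limma adjusted p = 0.295, and 60-day difference -1.41 ± 0.57, adjusted p = 0.206). The Mmp10 probe was above background on 9 of 16 arrays, so its lower levels may lie near background. Mmp27 of the same cluster had a difference of the other sign at 4 days (0.88 ± 0.33, adjusted p = 0.208). A second Mmp27 probe was above background on 0 of 16 arrays.

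Genes for the substrates of these enzymes were mostly lower after treatment. Of 21 collagen, laminin, proteoglycan and matrix glycoprotein genes 20 were lower at 4 days (median -0.67), 2 fell in limma and 0 rose. Of all 21985 genes 295 passed in this comparison, 1.34% of those tested. At an unadjusted p under 0.05 there were 7 of the 21, against 16.7% of all genes. Vcan, which encodes the proteoglycan versican, fell 3.58-fold (-1.84 ± 0.30, adjusted p = 0.0129), and Col8a1, a short-chain collagen, fell 3.65-fold (-1.87 ± 0.37, adjusted p = 0.0319). With median centring 0 of the 21 passed, and 20 were lower. At 60 days 19 of 21 were lower (median -0.77), and in resistant tumours 19 of 21 were lower than in untreated ones (median -0.49). In limma 0 passed in either, with 9 and 6 at an unadjusted p under 0.05 (18.7% and 9.52% of all genes).

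Regulators of the proteases gave no call. Of 18 tested activators, inhibitors and surface partners, such as the plasminogen activators and their receptor, furin-type convertases and thrombospondins, 14 were lower at 4 days (median -0.43) and 15 at 60 days (median -0.30), with 0 passing in limma in either, and 6 and 5 at an unadjusted p under 0.05 (16.7% and 18.7% of all genes). In resistant tumours 16 of the 18 were higher than in 4-day tumours (median 0.60), again with 0 passing and 6 at an unadjusted p under 0.05 (8.19% of all genes). Plaur had a 4-day difference of -1.21 ± 0.49 (limma adjusted p = 0.235). Of 10 tested inflammatory inducers of these genes (Il1a, Il1b, Il1r1, Tnf, Il6, Osmr, the 3 Tgfb genes and Ptgs2), 9 were lower at 4 days (median -0.43) and 9 at 60 days (median -0.52), and 10 were higher in resistant than in 4-day tumours (median 0.38). In limma 0 passed in each of the 3, with 1, 2 and 2 at an unadjusted p under 0.05 (16.7%, 18.7% and 8.19% of all genes). Il1b, a cytokine that induces Mmp3 and Mmp13 in fibroblasts, had a mean level of 3.27 in untreated, 1.60 in 4-day, 0.89 in 60-day and 3.44 in resistant tumours (4-day difference -1.67 ± 0.70, limma adjusted p = 0.249, and 60-day difference -2.37 ± 0.70, adjusted p = 0.102). Of 14 AP-1, ETS and RUNX factor genes 8 were lower and 6 higher at 4 days (median -0.10). In limma 0 passed, with 3 of the 14 at an unadjusted p under 0.05, against 16.7% of all genes. Fos, a subunit of AP-1, had a 4-day difference of -0.60 ± 0.47 (limma adjusted p = 0.602) and Jun, its partner, 0.10 ± 0.25 (0.922). Neither was among those 3 factor genes.

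**Figure D5:**
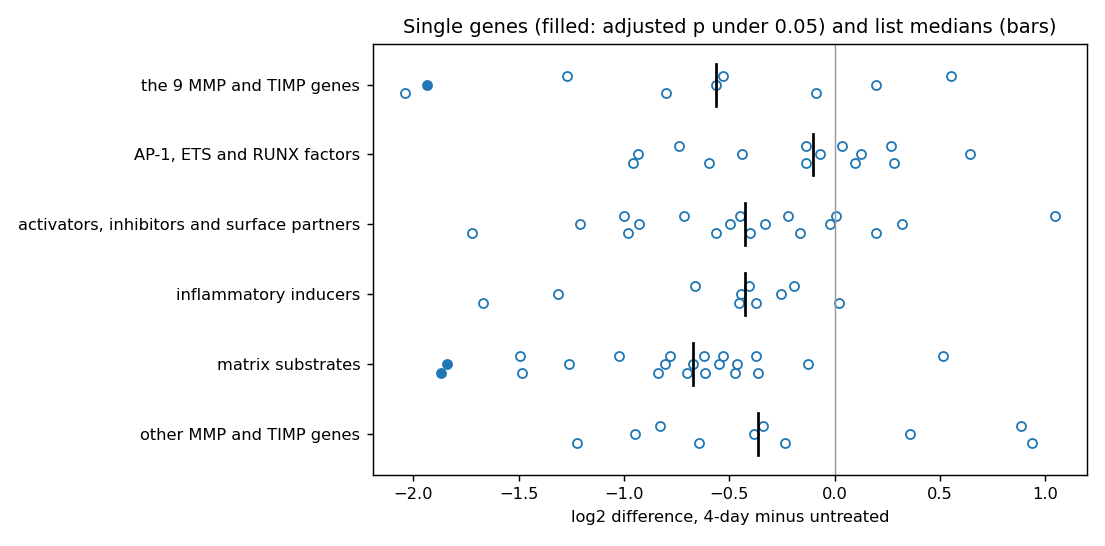
Log2 difference between 4-day and untreated tumours (horizontal axis) of single genes in 6 gene lists (rows), with a bar at the median of each list and filled points for genes past an adjusted p of 0.05. Filled points are Mmp13 in the first row and Vcan and Col8a1 among the matrix substrates, where 20 of 21 points lie below 0.

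Markers of other cells were measured in the same tumours. The mean level of 5 hair shaft genes ran from 5.63 to 6.56 in 4-day and 5.81 to 6.29 in 60-day tumours, and from 2.58 to 5.90 in untreated tumours. Their mean level in resistant tumours ran from 2.91 to 5.86. In limma 0 of these 5 genes passed at 4 or 60 days, with 4 at an unadjusted p under 0.05 at each (16.7% and 18.7% of all genes). Of 7 melanocyte genes 6 were higher at 4 days and 1, Mitf, passed, against 1.34% of all genes. Their mean level ran from 2.05 to 2.49 in untreated, 2.30 to 3.95 in 4-day and 2.94 to 3.66 in 60-day tumours. Of 8 fibroblast markers 5 were lower at 4 days and 4 at 60 days, with 0 passing in limma (2 and 1 at an unadjusted p under 0.05, against 16.7% and 18.7% of all genes), and their mean level overlapped in all groups. The part of these cells in the levels of the 9 genes was not tested.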

How the data were processed

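RNA of 16 tumours was measured on 2-colour Agilent arrays. Per the file headers, the deposited spot values are intensity values from Agilent Feature Extraction 10.7.3.1, a mean brightness and a median of the local background for each spot, beside processed intensity values and a log10 ratio (Cy5 over Cy3) from them. Per the file headers, other columns hold flags for spots above background or flagged as outliers. The deposited value table holds log2 ratios, which followed the log10 ratios once both were in base 2 (slope 0.993). The sources used here give no other processing by the authors.

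From the mean and background intensities, background was removed by normexp (offset 50), the ratio was normalized by loess within each array, control spots had no weight, and outlier spots (0.550% of values) were treated as missing, with limma 3.58.1 in R 4.3.3. Averaging the 59305 spots gave 55681 probes, which were kept if above background in Cy5 on at least 4 of 16 arrays (30486 probes), and the brightest probe stood for its gene (21985 genes). RefSeq accessions gave current symbols for 19887 probes. Probe positions come from the array design (mm9), which names no exon or UTR. The 4 groups were fitted in 1 limma model, with p-values adjusted by Benjamini-Hochberg over all genes in each of 6 comparisons, at a threshold of 0.05. The number of arrays limits the precision. The sources do not say whether the tumours of a group came from separate animals, so p-values measure the spread between these samples, which may be technical. A marker level is the mean over the measured genes of a list. Named are all 9 genes, genes of the lists past the threshold against untreated tumours (at most 4 a list), and the 3 genes most like each of the 9, without those that carry no gene name. Plaur, Il1b, Mmp10, Mmp27, Fos, Jun and Mitf were also described with values or named as calls, and were chosen after their values were seen. Alternatives were other scalings and backgrounds, Cy5 alone, the slide as a block or each slide alone, array weights, other filters, the mean over probes, and each array left out. The genes and lists were chosen with earlier results of these data known.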

Additional observations from a re-analysis of the deposited data

Results flagged for a closer look

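In 36 sets of 4 tumours (9 genes in 4 groups), 3 had 1 tumour whose gap to its nearest neighbour was a larger share of the range of the set than the critical value of Dixon's test, where chance flags about 1 in 20 sets. For Mmp13 in the 4-day group the share was 0.893, with replicate 4 at 0.14 and the others at -0.81 to -0.71. For Mmp3 in the 60-day group it was 0.928, with replicate 1 at 0.84 and the others at 1.55 to 1.61. For Timp1 in the untreated group it was 0.871, with replicate 1 at 0.29 and the others at 1.29 to 1.44. Without the tumour in question the 4-day difference of Mmp13 was -2.16, the 60-day difference of Mmp3 was -1.05 and the 4-day difference of Timp1 was -2.31.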

How the results depend on the processing

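Of the 9 genes, 1 passed between 4-day and untreated tumours. With the slide as a block 2 passed (Mmp13 and Timp1), with array weights 3 (these and Mmp2), and 0 passed with median centring, on slide 1 alone, on slide 2 alone, in a model of only the groups compared, and without a filter on dim probes. Between 60-day and untreated tumours 0 passed, against 1 (Mmp13) with Cy5 alone and with the slide as a block, 3 (Mmp13, Mmp14 and Timp1) with array weights, and 2 (Mmp3 and Timp1) in a model of only the groups compared. Over all 21985 genes, the 4-day counts were 633 with the slide as a block, 4039 with array weights, 12 with median centring, 29 in the model of only the groups compared and 0 on each slide alone, against 295. At 60 days they were 251 with Cy5 alone, 626 with the slide as a block, 4887 with array weights and 1258 in the model of only the groups compared, against 180. With 1 array left out the count ran from 0 to 2 in both comparisons. At 4 days it was 0 without any 1 of 12 arrays and 2 without resistant replicate 1 or 3, and at 60 days it was 2 without resistant replicate 1 and 1 without untreated replicate 3. In the other 4 comparisons 0 of the 9 genes passed under every setting run.

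The sign of Mmp2, Mmp3, Mmp9, Mmp13, Mmp14, Timp1 and Timp3 against untreated tumours held at 4 and 60 days under every setting run. That of Timp2 turned to -0.25 with array weights, -0.11 without 4-day replicate 2 and -0.14 without untreated replicate 3 at 4 days. With 1 array left out the 4-day value ran from -0.14 to 0.49. At 60 days it turned to -0.00105 on slide 2 alone, -0.19 with array weights, -0.06 without 60-day replicate 1 and -0.23 without untreated replicate 3, with a range of -0.23 to 0.30 over the arrays left out. On slide 1 alone the resistant differences turned to -0.40 for Mmp9 against untreated tumours, and to -0.74 and -0.30 for Mmp3 against 4-day and 60-day tumours. The causes were not tested. No paired analysis was possible because the replicate numbers were given in accession order and pair no tumours. Signal limits Mmp12, above background on 4 of 16 arrays, and Mmp9 in 4-day tumours, above background on 1 of 4.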
